A study of Drosophila melanogaster with 18 samples.

Results

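Reporter activity of 14 enhancer series was compared between twi:CD2+ cells and mef2:CD2- cells, which were sorted from Drosophila melanogaster embryos and measured by QeFS. All 18 libraries of the study belong to the comparison: 6 libraries from 3 collections of twi:CD2+ cells and 12 libraries from 6 collections of mef2:CD2- cells, with 1 RNA library and 1 DNA library in each collection. The embryos came from transformant males, which carried a pool of tagged reporters integrated at the attP40 site, and virgin females that expressed the rat surface marker CD2. Under the twi promoter the marker labels the whole mesoderm, and the CD2-positive cells were kept. Under the mef2[IE-D5] enhancer it labels fusion-competent myoblasts, and the CD2-negative cells, that is all other cells of the embryo, were kept. Eggs were laid for 2.25 h and aged for 11 h at 18°, and no other treatment separates the groups. The 6 collections of mef2:CD2- cells fall into 2 weeks of 3. Different fly populations were crossed in each week, so that cell population, week, fly population and depth cannot be told apart. P-values here measure the spread between collections.

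An enhancer is a stretch of DNA that raises the transcription of a gene when transcription factors bind their motifs in it. In QeFS each enhancer version drives a reporter whose 3′ end carries short tags, so that RNA reads of a tag count transcripts and DNA reads of the same tag count the cells that carry the reporter. The mesoderm gives rise to the muscles, the heart and the fat body, and the embryo's ectoderm, nervous system and endoderm lie outside it. Of the compared populations, one is therefore mesoderm alone and the other holds mesoderm beside all other tissues. Of the 14 series, 12 were designed around motifs of ubiquitously expressed DNA-binding proteins. In the construct names D marks mutated motifs of Deaf1, S those of Schlank, 7 those of ZIPIC (CG7928) and 1 those of CG12236-PB. The other 2 series are muscle enhancers that served as controls, Act57B with a mutated Mef2 site and BTub60D with mutated bap and bin sites. Mef2 is the central differentiation factor of muscle, and bagpipe (bap) and biniou (bin) direct the visceral mesoderm.

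Mutated sites were read only for enhancers whose gene had a known chromosome arm, and those of a pair of series are shown. ChIPCRM2847 lost activity with its Deaf1 sites in both populations. The collections of the hth_3 series did not overlap between the populations, while none of its mutants was called. Capitals mark the mutated bases, and positions count from 1 at the first base of the enhancer. The first 385 bases of each design were compared, and sites beyond them were not analysed here. ChIPCRM2847 lies in an intron of the insulin receptor gene InR on chromosome arm 3R, and its Deaf1 mutant changes C38G, C194G and C307T in these bases.
ChIPCRM2847 wildtype, Deaf1 site 1: agctgcgaaaCgagagtttgt
ChIPCRM2847-D, Deaf1 site 1: agctgcgaaaGgagagtttgt
ChIPCRM2847 wildtype, Deaf1 site 2: gctaaatttaCgagtacagtt
ChIPCRM2847-D, Deaf1 site 2: gctaaatttaGgagtacagtt
ChIPCRM2847 wildtype, Deaf1 site 3: caacagaaacCgaaacaaggg
ChIPCRM2847-D, Deaf1 site 3: caacagaaacTgaaacaaggg
The enhancer hth_3 is named for homothorax (hth), a homeobox gene on chromosome arm 3R. In the compared bases its Deaf1 mutant changes C269G, and its ZIPIC mutant changes G272A, G273C and G274T right beside it.
hth_3 wildtype, Deaf1 site: ggggcgtggaCgagggccgga
hth_3-D, Deaf1 site: ggggcgtggaGgagggccgga
hth_3 wildtype, ZIPIC site: gcgtggacgaGGGccggaggagg
hth_3-7, ZIPIC site: gcgtggacgaACTccggaggagg

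The authors counted unique molecular identifiers (UMIs) per tag, and the libraries held 312 tags of 93 constructs. RNA libraries had 813922 to 1366066 UMIs in twi:CD2+ cells and 560294 to 1201998 in the mef2:CD2- cells. DNA libraries had 317396 to 621449 and 54038 to 248151 UMIs, respectively, and the median tag that was used had 1629 DNA UMIs in the former and 381 in the latter. Only reporter tags were read, so that the sorted cells could not be checked against marker genes. Activity was the ratio of the share that a construct held of a collection's RNA UMIs to the share it held of the DNA UMIs, over tags with at least 65 DNA UMIs. It is therefore relative to the pool, in which a series can only rise while others fall, and fewer cells that use an enhancer and less RNA per cell cannot be told apart. Of 93 constructs, 87 were measured in all 9 collections. Their mean log2 activities in the populations had a Pearson's r of 0.95 (Spearman's rho 0.94, n = 87 constructs that share tags and libraries), and those in the weeks of mef2:CD2- cells had an r of 0.97.

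The first question was whether an enhancer series as a whole was more active in one population. The activity of a series was the mean log2 activity of its constructs in a collection. ChIPCRM2000 was the series with the lowest activity in twi:CD2+ cells relative to mef2:CD2- cells. It was at -4.75, -3.98 and -4.07 in twi:CD2+ cells and at -3.18, -3.29 and -3.75 (week 1) and -2.21, -2.90 and -2.78 (week 2) in the mef2:CD2- cells. All 3 collections of twi:CD2+ cells lay below all 6 of mef2:CD2- cells. The difference was -1.25 on the log2 scale, a ratio of 0.420, and reached the smallest p that 3 against 6 collections allow (exact permutation test, two-sided, p = 0.0238). Adjusted over the 14 series the p was 0.167, so that the shift did not pass the threshold of 0.05. The difference was -0.86 against week 1 and -1.64 against week 2, and the weeks themselves differed by 0.78. Every one of the 6 constructs of the series was lower in twi:CD2+ cells, by 0.80 to 1.80 on the log2 scale. The median difference over all 86 constructs tested was -0.02. Here and in the series below, the constructs make up the series value and give no separate support for its shift.

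The hth_3 series moved in the opposite direction. Its mean log2 activity was 0.78, 0.48 and 0.64 in twi:CD2+ cells, against 0.22, 0.14 and -0.13 in week 1 and 0.15, 0.24 and 0.15 in week 2 of mef2:CD2- cells. Again the populations did not overlap. The series was higher in twi:CD2+ cells by 0.50 on the log2 scale, a ratio of 1.42 (exact permutation test, two-sided, p = 0.0238, adjusted p = 0.167). Here the weeks differed by only 0.11, and the difference was 0.56 against week 1 and 0.45 against week 2. All 8 constructs, which make up the series value, were higher in twi:CD2+ cells, the wildtype enhancer at 1.69, 1.45 and 1.89 against 0.718 to 1.34. The smallest difference was that of hth_3-D, at 0.06. The other 7 lay between 0.43 and 0.64, and none was called on its own.

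No series passed the exact permutation test after adjustment (0% of 14, with 3 at an unadjusted p under 0.05). Nor could 1 series pass it alone, since the smallest possible p of 0.0238 has to be shared by several series. With limma, which borrows the spread from the other series, ChIPCRM2000 (adjusted p = 0.0192) and hth_3 (adjusted p = 0.0249) both passed. The 95% interval of the difference in this fit was -1.90 to -0.60 for ChIPCRM2000 and 0.20 to 0.81 for hth_3.

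**Figure D1:**
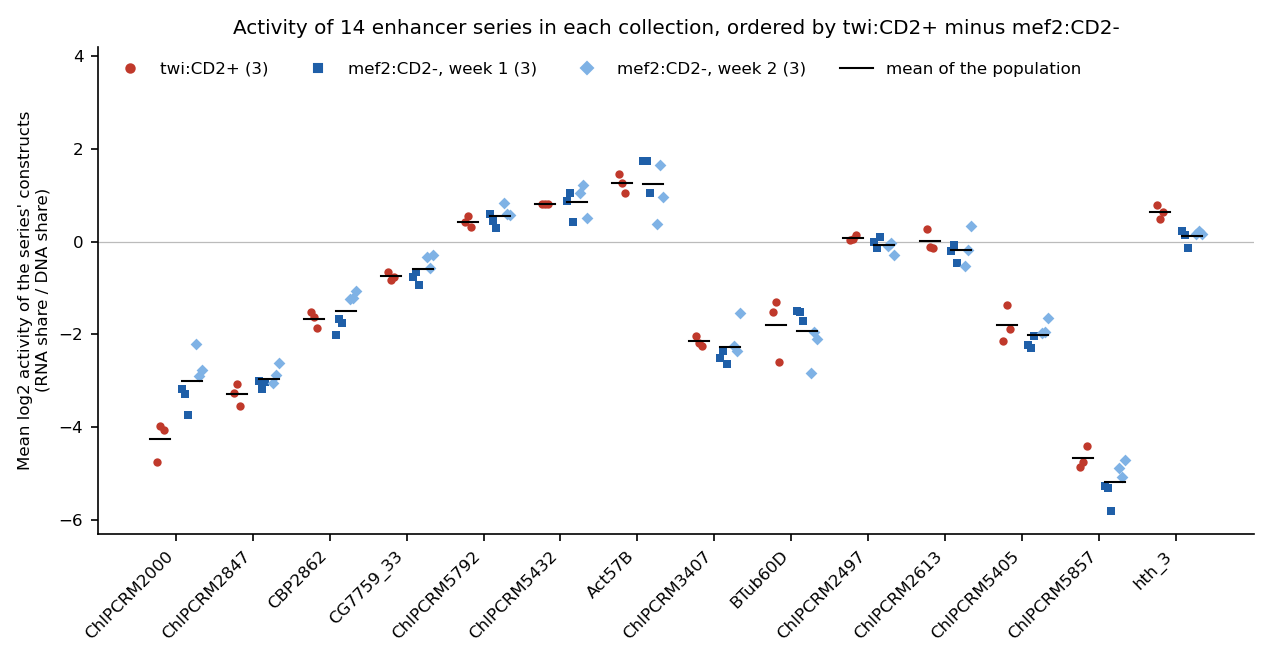
Mean log2 activity of the constructs of each of the 14 enhancer series, with 1 point per collection and a bar at the mean of each population. ChIPCRM2000 and hth_3 are the series whose 3 points of twi:CD2+ cells do not overlap with the 6 of mef2:CD2- cells.

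Among the other 12 series the difference ranged from -0.33 to 0.50. ChIPCRM2847 was 0.796 times as active in twi:CD2+ cells (log2 difference -0.33, exact permutation test, two-sided, p = 0.0476, adjusted p = 0.222), and all 7 of its constructs were lower, by 0.16 to 0.55. ChIPCRM5857, a series of very low activity, was higher in twi:CD2+ cells by 0.50 with overlapping collections (exact permutation test, p = 0.0952, adjusted p = 0.267). This difference was 0.79 against week 1, 0.21 against week 2 and 0.0806 over tags with at least 200 DNA UMIs. ChIPCRM2497 had a difference of 0.16 (exact permutation test, p = 0.0714, adjusted p = 0.250). For CBP2862, CG7759_33, ChIPCRM2613, ChIPCRM3407, ChIPCRM5405, ChIPCRM5432 and ChIPCRM5792 the difference was between -0.18 and 0.22. Both muscle controls were close to equal. Act57B differed by 0.002 (95% interval -0.63 to 0.64) and BTub60D by 0.12 (-0.61 to 0.86), intervals that leave room for differences of the size seen in hth_3. The Act57B wildtype enhancer was among the most active constructs in both, at 5.56 ± 1.29 (SD, n = 3) in twi:CD2+ cells and 5.26 ± 2.11 (SD, n = 6) in the mef2:CD2- cells. Over the 14 series, the median size of the difference was 0.17 between the populations and 0.36 between the weeks. The former compares 3 with 6 collections and the latter 3 with 3. Against week 1 and week 2 alone, twi:CD2+ cells had medians of 0.244 and 0.243.

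Different tags of a construct are separate readings of the same enhancer, but their counts are those that made the series values. The tags therefore show how a shift was spread over them. They give no separate support for it, since ChIPCRM2000 and hth_3 were picked for their shifts. For ChIPCRM2000, 9 of the 9 tags that passed in all collections had a lower mean log2 activity in twi:CD2+ cells, by 0.34 to 2.11, where 79 of all 167 such tags did (47.3%). Of these 9, 3 lay entirely below the mef2:CD2- collections, both tags of ChIPCRM2000-71 among them, against 5.99% of all tags. Of the 19 tags of hth_3, 4 were lower and the median difference was 0.63. Of the 19, 2 lay entirely above, against 4.19% of all tags.

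Single constructs were compared next, with edgeR's quasi-likelihood test on the RNA and DNA counts of 86 constructs. Of these, 3 constructs (3.49%) differed between the populations, 1 higher and 2 lower in twi:CD2+ cells, and 19 had an unadjusted p under 0.05. Between the weeks of mef2:CD2- cells edgeR called none (0%), with 16 constructs at an unadjusted p under 0.05, and DESeq2 called 0 too. The median size of the log2 difference was 0.30 between the populations and 0.37 between the weeks, with 10 constructs over 2-fold in each. In the populations, 12 of 87 constructs (13.8%) had activities that did not overlap, 8 of them higher and 4 lower in twi:CD2+ cells. None of the 12 wildtype enhancers tested was called. Their log2 differences ran from -0.80 for ChIPCRM2000 to 0.95 for ChIPCRM3407, and the lowest adjusted p was 0.104, of CG7759_33-WT.

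The double mutant ChIPCRM2000-71, without ZIPIC and CG12236-PB motifs, had an activity of 0.0629, 0.0645 and 0.0452 in twi:CD2+ cells. In mef2:CD2- cells it was at 0.184, 0.206 and 0.149 in week 1 and 0.213, 0.214 and 0.234 in week 2. The means were 0.0575 ± 0.0107 (SD, n = 3) and 0.200 ± 0.0295 (SD, n = 6), with no overlap, and the log2 difference was -1.80 (edgeR, adjusted p = 1.83e-04). Both of its tags showed the difference. Tag 1 had 0.0668 ± 0.00781 against 0.214 ± 0.0418, and tag 2 had 0.0421 ± 0.0158 against 0.178 ± 0.0380 (SD, n = 3 and 6). Without tag 1 the log2 difference was -2.11 and without tag 2 it was -1.66 (edgeR, adjusted p = 0.00136 and 0.00284).

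The other 2 calls rested on 1 tag each. CG7759_33-D7, a double mutant of Deaf1 and ZIPIC motifs, had an activity of 0.384, 0.480 and 0.304 in twi:CD2+ cells against 0.0814, 0.132, 0.117, 0.108, 0.121 and 0.0869 in mef2:CD2- cells. This is a log2 difference of 1.85 (edgeR, adjusted p = 9.51e-05), with every twi:CD2+ collection above. Its tag 1 was at 0.677 ± 0.162 against 0.144 ± 0.0456 (SD, n = 3 and 6), whereas tag 2 was at 0.0658 ± 0.0257 against 0.0673 ± 0.0270 and tag 3 at 0.194 ± 0.101 against 0.0983 ± 0.0404. The last pair overlapped. Without tag 1 the log2 difference of the construct was 0.11 (edgeR, adjusted p = 0.968). The tag was not a shallow one, with 285 to 4999 DNA UMIs per collection.

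ChIPCRM3407-7, the ZIPIC mutant of ChIPCRM3407, was lower in twi:CD2+ cells, at 0.281, 0.247 and 0.338. In mef2:CD2- cells its activity was 0.869, 1.06 and 0.666 in week 1 and 1.87, 1.26 and 2.30 in week 2. The log2 difference was -2.09 (edgeR, adjusted p = 0.00132), and the populations did not overlap. Tag 2 carried it, with 0.296 ± 0.0546 (SD, n = 3) against 1.90 ± 0.889 (SD, n = 6). Tag 1 passed in only 2 collections of twi:CD2+ cells, with 0.233 and 0.0722, and had 0.174 ± 0.0510 (SD, n = 6) in mef2:CD2- cells, with overlap. It cannot be fitted without tag 2, since tag 1 was not read in every collection.

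**Figure D2:**
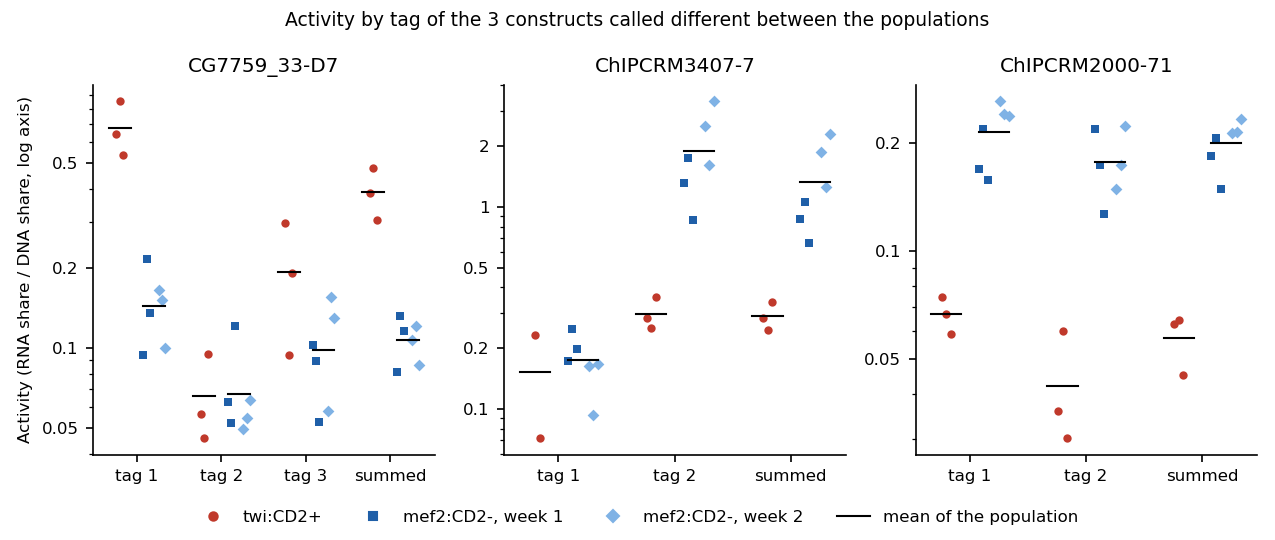
Activity of each tag of the 3 constructs called different, and of the sum over their tags, with 1 point per collection on a log axis and a bar at the mean of each population. For ChIPCRM2000-71 both tags separate the populations, whereas tag 1 of CG7759_33-D7 and tag 2 of ChIPCRM3407-7 stand apart from the other tags of their construct.

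A pair of constructs lay next to the threshold. ChIPCRM2000-D1 was at 0.0329 ± 0.0119 (SD, n = 3) in twi:CD2+ cells against 0.102 ± 0.0489 (SD, n = 6), a log2 difference of -1.57 without overlap (edgeR, adjusted p = 0.0567). CG7759_33-DS was at 0.416 ± 0.144 against 0.762 ± 0.187, a log2 difference of -0.90 with overlapping collections (edgeR, adjusted p = 0.0567). Among the 12 constructs without overlap were also 3 of hth_3, namely the wildtype, hth_3-1 and hth_3-D71.

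**Figure D3:**
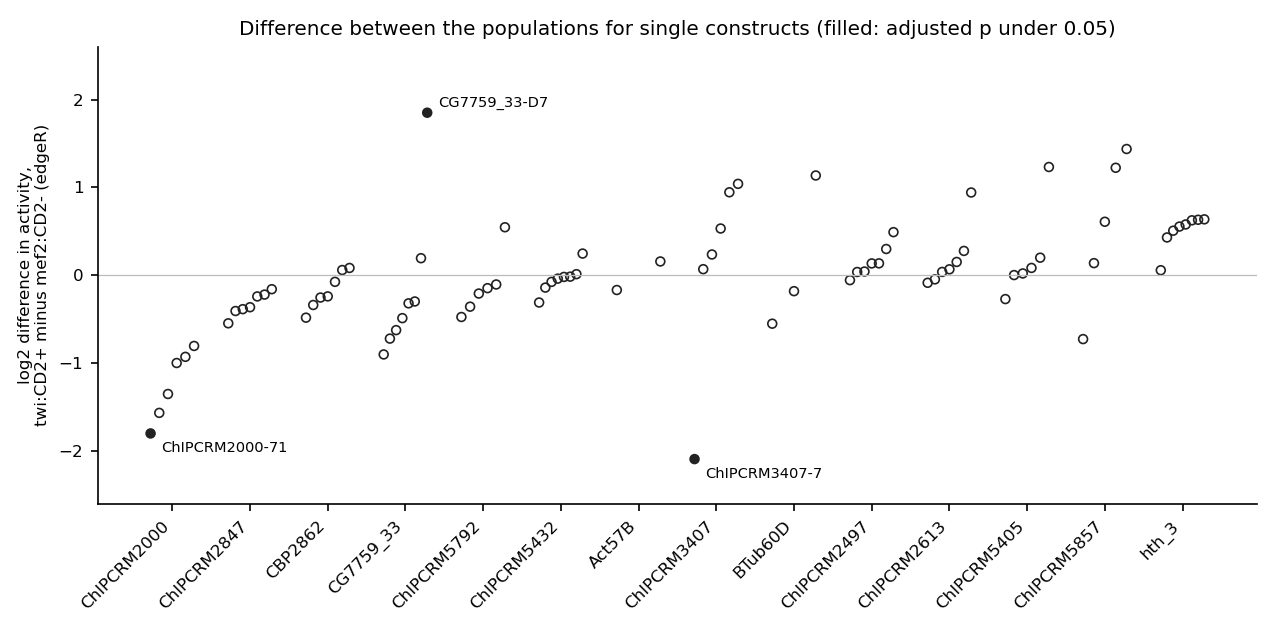
Log2 difference in activity between the populations for the 86 constructs tested, grouped by enhancer series, with filled points for the 3 constructs called by edgeR. The points of ChIPCRM2000 and ChIPCRM2847 all lie below 0 and those of hth_3 all lie above it.

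The second question was whether a mutation changed its enhancer in the same way in both populations. The effect of a mutant was its log2 activity minus that of its wildtype enhancer in the same collection. Effects in all 9 collections were available for 62 of 79 mutants. The mean effects had the same sign in 50 of the 62 (80.6%), and 56 differed by no more than 2-fold between the populations. The median size of the difference was 0.21 on the log2 scale. Between the weeks of mef2:CD2- cells it was 0.30 and 51 of 62 signs were shared, where each week is a mean of 3 collections. Against week 1 and week 2 alone, twi:CD2+ cells had median differences of 0.28 and 0.27. Pearson's r of the mean effects was 0.88 between the populations and 0.93 between the weeks (Spearman's rho 0.73 and 0.82, n = 62 mutants that share wildtypes and tags). For single collections, the median r was 0.71 over 3 pairs within twi:CD2+ cells, 0.72 over 18 pairs between the populations and 0.83 over 15 pairs within mef2:CD2- cells.

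**Figure D4:**
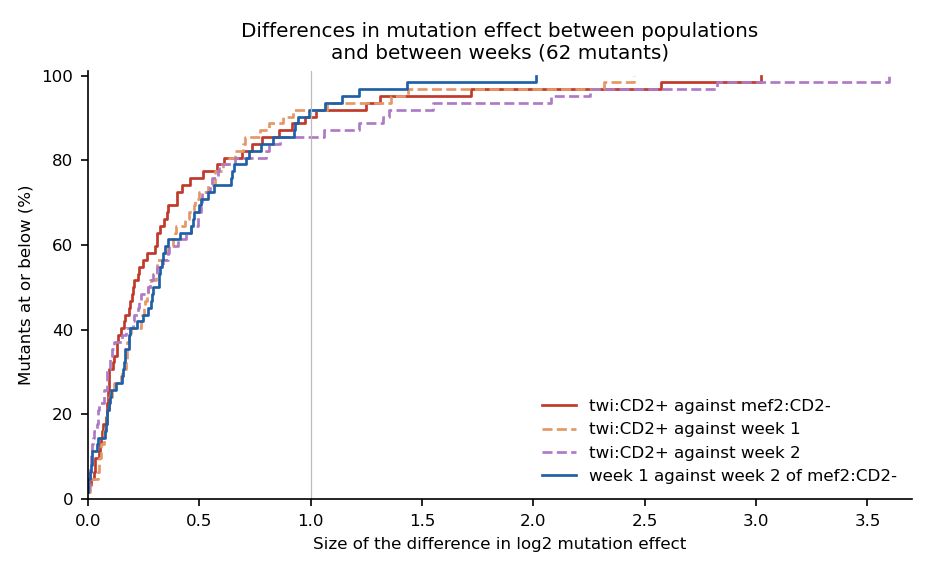
Cumulative share of the 62 mutants by the size of the difference in their log2 effect, between twi:CD2+ and mef2:CD2- cells, between twi:CD2+ cells and each week, and between the weeks. The curve of the populations lies close to that of the weeks, with medians of 0.21 and 0.30, and the vertical line marks a 2-fold difference.

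Signs were then counted by the size of the effect. Of the 19 mutants with an effect over 2-fold in either population, 18 had the same sign in both, against 32 of the 43 with smaller effects, a contrast that was not tested. The median difference was 0.40 in the former and 0.15 in the latter. A total of 18 mutants had one sign in all 9 collections, 14 lower and 4 higher than the wildtype. Not a single mutant had one sign in all collections of twi:CD2+ cells and the other in all of mef2:CD2- cells. Of the 12 mutants with opposite mean signs, 7 had effects under 0.5 in size in both populations.

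The largest effect was that of ChIPCRM5432-D1, which lacks the Deaf1 and CG12236-PB motifs. Its log2 effect was -8.89, -8.87 and -7.16 in twi:CD2+ cells and -9.34, -8.09, -7.67, -8.56, -8.46 and -6.37 in the mef2:CD2- cells. The means of -8.31 ± 0.99 (SD, n = 3) and -8.08 ± 1.00 (SD, n = 6) differed by less than the spread between collections. The wildtype enhancer had an activity of 5.08 ± 1.57 and 5.64 ± 2.35, and the mutant one of 0.0161 ± 0.00592 and 0.0202 ± 0.00758 (SD, n = 3 and 6). All 3 tags of the mutant had an activity of at most 0.0567 in every collection. Single losses in this enhancer had smaller effects in both populations. ChIPCRM5432-D was at -0.77 ± 0.19 and -0.70 ± 0.54, and ChIPCRM5432-1 at -0.71 ± 0.56 and -1.04 ± 0.44 (SD, n = 3 and 6). The triple mutant ChIPCRM5432-D71, which lacks the same motifs and those of ZIPIC, was at only -0.83 ± 0.69 and -0.89 ± 0.42 (SD, n = 3 and 6), so that the large loss was not seen when the ZIPIC motifs were mutated too.

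ChIPCRM2847 lost activity in both populations when its Deaf1 motifs, shown above, were mutated. The effect of ChIPCRM2847-D was -1.65, -2.28 and -2.43 in twi:CD2+ cells and -2.25, -1.76, -3.40, -0.90, -2.77 and -1.81 in the mef2:CD2- cells. The difference between the means of -2.12 and -2.15 was 0.03 (95% interval -1.05 to 1.10). ChIPCRM2847-D1 was at -1.95 ± 0.39 and -2.04 ± 0.60, and ChIPCRM2847-1 at -1.72 ± 0.32 and -1.41 ± 0.61 (SD, n = 3 and 6). All 3 were lower than the wildtype in each of the 9 collections. With the Schlank motif mutated as well, the loss was not called in either population. ChIPCRM2847-DS was at -0.12 ± 1.07 and 0.01 ± 0.74, and ChIPCRM2847-DS1 at -0.64 ± 0.52 and -0.47 ± 0.38 (SD, n = 3 and 6). ChIPCRM2847-DS1 was still lower than the wildtype in each of the 9 collections. Differences between mutants with and without the Schlank motif were not tested.

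Both control enhancers lost activity with their muscle factor sites in both populations. The Mef2 site mutant of Act57B had an effect of -2.38 ± 0.86 in twi:CD2+ cells and -2.07 ± 0.84 in the mef2:CD2- cells, and the triple mutant BTub60D_binI_binII_bap_Mut had one of -3.46 ± 0.31 and -3.80 ± 0.69 (SD, n = 3 and 6). The effect of the bap mutant alone varied in sign between collections. BTub60D_bap_Mut was at 0.59, -0.15 and 1.83 in twi:CD2+ cells and at 0.31, -0.88, -1.24, -2.05, -0.50 and -1.42 in the mef2:CD2- cells. In mef2:CD2- cells it was called lower than the wildtype (limma, adjusted p = 0.0259). Its difference between the populations of 1.72 ± 0.54 (SE) did not pass the threshold (limma, adjusted p = 0.168). Without mef2:CD2- replicate 1 this difference was 1.98 and passed (limma, adjusted p = 0.0471). With the mean log2 activity of single tags it was 0.66 (limma, adjusted p = 0.970).

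Some mutants were called higher in both populations. ChIPCRM5857-S, in which the Schlank motif is lost, had an effect of 2.77, 2.50 and 2.55 in twi:CD2+ cells. In mef2:CD2- cells its effect was 2.22, 2.37 and 3.23 in week 1 and 3.26, 0.78 and 0.13 in week 2, so that 2 collections of week 2 stood far below the rest. Tag 3 carried most of it, with an activity of 0.567 ± 0.283 (SD, n = 3) and 0.229 ± 0.142 (SD, n = 6). Tag 1 had 0.0241 ± 0.00593 and 0.0212 ± 0.0176 (SD, n = 3 and 6), below the wildtype at 0.0383 ± 0.0131 and 0.0252 ± 0.00789. With the mean log2 activity of single tags the effect in mef2:CD2- cells was 0.71 and the call was lost (limma, adjusted p = 0.0759), as it was in week 2 alone (1.39, limma, adjusted p = 0.0798). CG7759_33-S was at 1.20 ± 0.14 and 0.80 ± 0.29, and CG7759_33-7 at 1.19 ± 0.92 and 0.76 ± 0.30 (SD, n = 3 and 6). The triple mutant CG7759_33-DS7, read from 1 tag, had 2.91, 2.93 and 2.35 in twi:CD2+ cells against 1.46 to 2.33 in mef2:CD2- cells. These ranges did not overlap, and the difference of 0.92 ± 0.31 (SE) had an adjusted p of 0.179 (limma). ChIPCRM2000-D71, the triple mutant of ChIPCRM2000, was lower in all collections at -2.05 ± 1.00 and -1.96 ± 0.97 (SD, n = 3 and 6). In twi:CD2+ cells the call was lost without replicate 1 (-1.71, limma, adjusted p = 0.0926) and without replicate 3 (-1.82, limma, adjusted p = 0.0571), with odd and even tags (-1.25, limma, adjusted p = 0.367) and with the mean log2 activity of single tags (-1.65, limma, adjusted p = 0.0540).

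**Figure D5:**
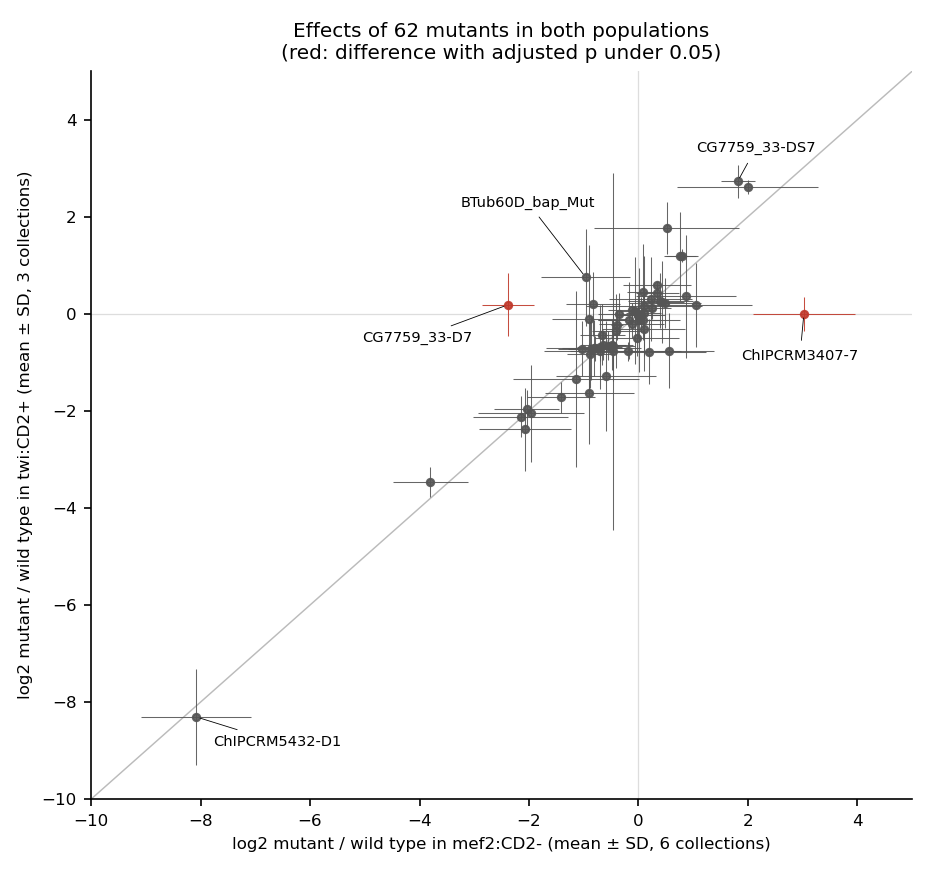
Mean log2 effect of each of 62 mutants on its wildtype enhancer in mef2:CD2- cells (6 collections) and twi:CD2+ cells (3 collections), with bars for the SD and the diagonal for equal effects. Most mutants lie near the diagonal, and CG7759_33-D7 and ChIPCRM3407-7, in red, lie away from it on opposite sides.

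Only 2 of 62 effects (3.23%) differed between the populations by limma, and 6 had an unadjusted p under 0.05. The effect of CG7759_33-D7 was 0.39, 0.71 and -0.54 in twi:CD2+ cells and -2.61, -1.73, -2.06, -2.44, -2.36 and -3.11 in the mef2:CD2- cells. The difference was 2.57 ± 0.38 (SE, limma, adjusted p = 0.00160), and the collections did not overlap. By the exact permutation test over the mutants the adjusted p was 0.492. That test cannot call a few mutants, since its smallest possible p of 0.0238 is adjusted over 62. In the mef2:CD2- cells the double mutant thus stood apart from CG7759_33-D at 0.35 ± 0.39 and CG7759_33-7 at 0.76 ± 0.30 (SD, n = 6). As for its activity, the call rested on tag 1, without which the difference was 0.83 (limma, adjusted p = 0.364).

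For ChIPCRM3407-7 the effect was -0.06, 0.38 and -0.32 in twi:CD2+ cells. In mef2:CD2- cells it was 2.44, 2.40 and 2.52 in week 1 and 4.37, 4.06 and 2.36 in week 2, above all collections of the other population. The difference was -3.02 ± 0.51 (SE, limma, adjusted p = 0.00241). By the exact permutation test over the mutants, with the same limit, the adjusted p was 0.492. Beside the single tag of the mutant, the wildtype moved too. Tag 1 of ChIPCRM3407-WT had an activity of 0.385, 0.347 and 0.503 in twi:CD2+ cells but 0.00510 and 0.00460 in replicates 4 and 5 of mef2:CD2- cells, which are the 2 collections with the largest effect of the mutant. Without tag 1 of the mutant the difference was -3.49 (limma, adjusted p = 0.000676), and with the mean log2 activity of single tags it was -2.47 and no longer called (limma, adjusted p = 0.114). The paper also reports a rise of this mutant in mef2:CD2- cells. It compared effects in these cells with quantitative PCR on whole embryos. The single case that disagreed, imaged with the ChIPCRM3407 series, is there called a false positive of QeFS, and the text does not name the mutant.

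Of the remaining mutants with large differences, none passed the threshold. ChIPCRM5857-D1 was at -0.75 ± 0.77 in twi:CD2+ cells and 0.56 ± 0.83 in the mef2:CD2- cells. ChIPCRM5405-D7 was at 1.77 ± 0.54 and 0.52 ± 1.32, where week 1 averaged 1.53 and week 2 averaged -0.49. ChIPCRM2613-1 was at 0.20 ± 0.66 and -0.83 ± 0.49, negative in 6 of 6 collections of the latter. For ChIPCRM2000-71, ChIPCRM3407-S and ChIPCRM5857-D the differences of -0.97, -0.86 and 0.78 came with overlapping collections (SD, n = 3 and 6).

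Within each population, 13 mutants in twi:CD2+ cells (21%) and 27 in the mef2:CD2- cells (43.5%) differed from the wildtype by limma. Of these, 12 mutants were in both groups, each with the same direction in both and with a difference of at most 0.92. The number of collections differs between the populations, and a call in one alone is not a tested difference between them. By motif, the single Deaf1 mutants shared their sign in 9 of 9 enhancers. The mean effect was negative in 7 of them in each population and positive in both for CG7759_33-D and ChIPCRM5405-D. Only 1 was lower in all 9 collections. The medians were -0.43 in twi:CD2+ cells and -0.66 in the mef2:CD2- cells. Of the 9 mutants, 1 was called lower in the former and 3 in the latter. Single CG12236-PB mutants shared their sign in 6 of 7, with medians of -0.64 in both, and 1 and 4 were called lower, respectively. Single Schlank mutants, with medians of 0.70 and 0.92, shared it in 3 of 4, and 2 and 3 were called higher. Single ZIPIC mutants, with medians of 0.15 and 0.16, shared it in 5 of 6, with 1 and 2 called higher. The 5 include ChIPCRM3407-7, whose mean effect in twi:CD2+ cells was only 0.0009.

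Combined mutations were counted in the same way. Doubles that include Deaf1 shared it in 12 of 17, with medians of -0.31 and -0.12. Doubles without Deaf1 shared it in 6 of 8, with medians of -0.15 and 0.07. Triples shared it in 7 of 8, with medians of -0.56 and -0.29. Whether these shares differ was not tested. Over all mutants the medians were -0.18 in both populations, and 31 of 62 effects were more positive in twi:CD2+ cells. All 7 effects in hth_3 were less positive there, by 0.01 to 0.58, as were all 5 in ChIPCRM2000, by 0.09 to 0.97. They share a wildtype, however, so that 1 wildtype value moves all effects of a series.

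Both populations were read through the same tags, which limits what agreement between them can show. For 25 mutants with odd- and even-numbered tags in every collection of both populations, tags being numbered in the order of their sequence, the median difference between the populations was 0.19 with all tags and 19 of 25 signs were shared. With odd tags in twi:CD2+ cells and even tags in the mef2:CD2- cells it was 0.73 with 15 shared signs, and with the tags exchanged it was 0.61 with 15. Odd tags against even tags within 1 population gave 0.78 with 13 shared signs in twi:CD2+ cells and 0.56 with 15 in the mef2:CD2- cells. Odd tags in both populations gave 0.42 with 19 shared signs, and even tags in both gave 0.75 with 15. Disjoint sets of tags thus differed about as much within a population as between the populations. Whether the rise from 0.19 comes from fewer tags or from different tags was not tested.

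For 17 mutants the effect was missing in at least 1 collection, and they enter no count above. Of these, 7 belong to CBP2862, whose wildtype had no tag with 65 DNA UMIs in replicate 3 of mef2:CD2- cells. CBP2862-D was at -2.39, -3.32 and -3.21 in twi:CD2+ cells and at -2.76, -2.08, -3.71, -2.76 and -1.89 in the other 5 collections of mef2:CD2- cells, and CBP2862-DS7 had a mean of -3.22 and -2.91. Another 6 belong to ChIPCRM5792, whose wildtype passed only in replicate 1 of twi:CD2+ cells. ChIPCRM2000-7 had an activity of 0.0245, 0.0339 and 0.0409 in twi:CD2+ cells and of 0.249 in the single collection of mef2:CD2- cells in which it passed.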

How the data were processed

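The authors took the first 8 bases of a read as its UMI, trimmed reads with cutadapt 1.14, aligned tags with Bowtie and deposited, per library, whole-number UMI counts and read counts per tag with no normalization. UMI counts were used here, summed over the tags of a construct with at least 65 DNA UMIs in the collection. The highest deposited count, 53453 UMIs, took up 81.6% of the 65536 sequences of 8 bases, so that the strongest tags are undercounted. Counts and activities were computed in R 4.3.3.

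Constructs with at least 10 RNA UMIs in every collection were tested with edgeR 4.0.16 (quasi-likelihood test), with library totals, a term for each collection (its RNA and DNA come from the same cells, and deviations of RNA and DNA had a correlation of 0.24 to 0.65, median 0.50) and terms for RNA and RNA in twi:CD2+ cells. Mutation effects were tested with limma 3.58.1, series by an exact permutation test over 84 choices of collections. The Benjamini-Hochberg method adjusted p over all features tested, with a threshold of 0.05. Named were all series, the constructs and effects called different, the 10 effects with the largest differences and the 10 largest effects of one sign in all collections. The comparison, the lists and the tests were chosen with earlier results of these data known. The edgeR test of the populations and the limma test of the difference in effect were tried on simulated data. The exact permutation test was tried on a fixed set of values. Alternatives included other DNA minimums, read counts, single-tag averages, DESeq2 1.42.0, single weeks and leaving out collections or tags, the last chosen after seeing the data. Sites were read from the study's designed sequences, and chromosome arms from RefSeq gene tables.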

Additional observations from a re-analysis of the deposited data

Results flagged for a closer look

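The effects of CG7759_33-D7 and ChIPCRM3407-7 differed between the populations by a test of the difference itself (limma), at 2.57 (adjusted p = 0.00160) and -3.02 (adjusted p = 0.00241) on the log2 scale, higher and lower in 3 of 3 collections of twi:CD2+ cells than in any of mef2:CD2- cells. Without tag 1 of CG7759_33-D7 its difference was 0.83 (limma, adjusted p = 0.364). With the mean log2 activity of single tags in place of summed counts, ChIPCRM3407-7 had an adjusted p of 0.114 (limma). The paper calls a case imaged with the ChIPCRM3407 series a false positive of QeFS in mef2:CD2- cells, without naming the mutant in its text. Among 36 sets of 6 collections of mef2:CD2- cells, 2 had a value far from the others, where chance gives about 1 in 20. The ChIPCRM3407 series was at -1.54 in replicate 6, with the next value at -2.25. The hth_3 series was at -0.13 in replicate 3, with the next at 0.14.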

How the results depend on the processing

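The 3 constructs called different (edgeR) were kept under every alternative run over all constructs, but the number called was 7 with read counts, 5 with UMI counts corrected for collisions, 10 with DESeq2, 7 against week 1 and 12 against week 2 of mef2:CD2- cells. It was 3 with no replicate block (the pairing of RNA and DNA by collection) and 3 to 5 when a collection was left out, with 5 without twi:CD2+ replicate 1. Between the weeks it was 0 to 5, with 5 without mef2:CD2- replicate 6. limma called 2 series, and the exact test 0 to 0 when a collection was left out, where the smallest p it allows is higher still. By the exact permutation test over the mutants 0 effects differed, but it cannot call a few among 62, since its smallest p is 0.0238. Differing effects by limma numbered 1 with at least 2 tags in each collection and 1 with the mean log2 activity of single tags. They numbered 2 to 3 when a collection was left out.

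The share of equal signs was 63.3% (19 of 30 mutants) with odd tags in twi:CD2+ and even tags in mef2:CD2- cells, where all tags gave 76.7% for the same 30. These 30 need odd tags only in the former and even tags only in the latter, and include mutants beyond the 25 with both in both populations. For all 62 the share was 69.4% to 85.5% when a collection was left out. The median difference of effects was 0.311 with read counts, 0.309 with the mean of single-tag activities, 0.741 with odd and even tags (0.20 with all tags of those 30), and 0.205 to 0.337 when a collection was left out, with 0.337 without twi:CD2+ replicate 1 and 0.319 without replicate 3. Mutants changed in twi:CD2+ cells numbered 8 with a minimum of 200 DNA UMIs, 4 with at least 2 tags, 3 with odd tags and 10 to 15 when a collection was left out. In mef2:CD2- cells they numbered 14 in week 1, 14 in week 2, 9 with even tags, 17 with the mean log2 activity of single tags and 20 to 32 when a collection was left out.

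Directions turned only where differences were small, apart from ChIPCRM5857-D (effect difference -2.11 with odd and even tags) and ChIPCRM5405-D7 (-0.0399 with the mean log2 activity of single tags). Act57B was at -0.25 with read counts, -0.25 against week 1, -0.00798 with tags that pass in all 9 collections and -0.00248 with the mean of single-tag activities. BTub60D was at -0.41 with a minimum of 200 DNA UMIs, -0.24 against week 1 and -0.20 with the mean log2 activity of single tags. ChIPCRM5432 was at 0.0289 with tags that pass in all 9 collections, 0.0272 against week 1 and 0.000322 with the mean log2 activity of single tags. Against week 1 CBP2862 was at 0.15 and CG7759_33 at 0.0297, and against week 2 ChIPCRM3407 was at -0.11. When a collection was left out, Act57B ranged from -0.17 to 0.11, BTub60D from -0.13 to 0.52, ChIPCRM5405 from -0.00023 to 0.39 and ChIPCRM5432 from -0.13 to 0.0308. The cause was not tested.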
